A study of Mus musculus with 12 samples.

Results

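Ribosomal protein pseudogenes were examined in mouse skin sampled after tick infestation. A member was any gene whose symbol begins with Rpl or Rps and a digit and also contains -ps, the mouse suffix for a pseudogene. Of 25070 genes in the deposited table, 134 met this rule, 81 named after proteins of the large ribosomal subunit and 53 after proteins of the small one. The 81 members with at least 1 CPM (a gene's reads scaled to a common library total) in 2 or more of the 12 libraries are described, 47 of the large and 34 of the small subunit. They were set beside the intact gene whose symbol stands before -ps, here called the parent. The 134 members have 44 parents.

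The libraries were made from total RNA of skin biopsies taken 4 days after tick attachment. Those labelled 1st exposure (n = 3) and saliva immune (n = 1) come from bitten skin and carry titles of the series EF19-4. Those labelled ticks 2x come from bitten skin (n = 3), as do those labelled ticks 3x (n = 3), and those labelled naïve (n = 2) from skin without a bite. All 8 carry titles of the series EF19-6. A comparison of 1st exposure or saliva immune libraries with ticks 2x, ticks 3x or naïve ones crosses both immunization and title series. In such a comparison immunization and title series cannot be told apart. The labels do not say what the title series stand for, how saliva immunity was raised, whether each library is a separate animal, or the strain, age or sex of the mice, so p-values measure the spread between these libraries. Estimated depth was 12.5 to 29.8 M reads, so that 3 reads, used as the detection floor, equal 0.101 to 0.24 CPM. Skin composition varied within groups: the mean log2(CPM + 1) of 26 hair follicle genes was between 0.44 and 9.10 over the libraries. It was 8.81, 9.10 and 1.27 in 1st exposure, 0.44 in saliva immune, 8.67, 2.31 and 0.49 in ticks 2x, 4.78, 6.38 and 0.52 in ticks 3x, and 7.25 and 0.67 in naïve skin.

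Ribosomes are built from ribosomal RNA and a set of proteins that every cell makes in large amounts. Their messenger RNAs are short and abundant in the germ line, and copies of them have been reverse-transcribed and inserted into the genome many times. Such processed pseudogenes lack introns, usually lack a promoter of their own, and carry the sequence of the messenger RNA as it was at insertion, so young copies are nearly identical to the parent. A sequencing read from an identical stretch can be assigned to either, and in whole skin such reads may come from every cell type.

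Most of the described members were processed copies by annotation. GENCODE M21, on the same genome build as the deposited table (GRCm38), held 77 of the 81 described members. It classes 69 as processed pseudogenes, 4 as transcribed processed pseudogenes and 4 as protein-coding. All 77 had 1 exon, whereas their parents had between 3 and 10, and 76 lay on another chromosome than the parent. Identity to the parent transcript, taken over the aligned part only, was between 89.8% and 100%, with a median of 99.2%. In 52 of the 77 the reading frame still ran from the start codon to the parent's number of codons.

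Stretches of 120 bases of coding sequence show how little separates most of these copies from the parents. They are given 5′ to 3′ on the transcribed strand, read from GENCODE M21 transcripts, with differing bases in capitals. The first 3 pairs are the pseudogenes that mark this set, and they differ between the title series.
Rpl14-ps1: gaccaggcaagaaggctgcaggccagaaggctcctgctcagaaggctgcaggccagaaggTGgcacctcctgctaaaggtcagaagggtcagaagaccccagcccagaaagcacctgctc
Rpl14: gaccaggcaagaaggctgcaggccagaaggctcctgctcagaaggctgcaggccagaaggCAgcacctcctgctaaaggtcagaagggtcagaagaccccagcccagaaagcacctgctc
Rps27a-ps2: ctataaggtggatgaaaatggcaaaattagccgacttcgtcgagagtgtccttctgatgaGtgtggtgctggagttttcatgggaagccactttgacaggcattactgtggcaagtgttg
Rps27a: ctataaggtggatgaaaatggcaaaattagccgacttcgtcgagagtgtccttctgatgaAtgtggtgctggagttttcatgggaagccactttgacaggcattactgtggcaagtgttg
Rps23-ps2: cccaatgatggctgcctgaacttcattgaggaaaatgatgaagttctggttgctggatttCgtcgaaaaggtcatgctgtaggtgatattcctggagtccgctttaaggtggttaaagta
Rps23: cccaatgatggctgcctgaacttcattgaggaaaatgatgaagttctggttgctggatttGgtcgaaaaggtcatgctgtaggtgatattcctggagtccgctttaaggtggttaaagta
The next pair is a pseudogene listed far above its parent.
Rpl3-ps1: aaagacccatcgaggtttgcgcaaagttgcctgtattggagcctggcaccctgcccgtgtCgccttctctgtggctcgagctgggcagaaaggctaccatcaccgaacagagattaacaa
Rpl3: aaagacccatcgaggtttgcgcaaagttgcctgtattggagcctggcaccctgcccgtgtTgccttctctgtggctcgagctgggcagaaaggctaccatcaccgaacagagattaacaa
The last pair is a diverged copy, Rps19-ps10, whose transcript is 93.2% identical to the parent.
Rps19-ps10: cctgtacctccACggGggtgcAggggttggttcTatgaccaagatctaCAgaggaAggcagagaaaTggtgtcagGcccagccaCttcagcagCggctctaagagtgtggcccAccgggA
Rps19: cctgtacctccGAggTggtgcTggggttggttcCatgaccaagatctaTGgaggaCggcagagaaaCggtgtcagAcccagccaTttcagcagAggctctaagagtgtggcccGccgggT

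Over the whole aligned transcript, Rpl14-ps1 (chromosome 7, 45324965 to 45325617) differs from Rpl14 by 4 substitutions and 1 gap, with 98.9% identity. Rps27a-ps2 (chromosome 9, 83409660 to 83410126) differs from Rps27a by 1 substitution in 467 bases. Rps23-ps2 (chromosome 8, 3583799 to 3584230) differs from Rps23 by 2 substitutions in 432 bases, and Rpl3-ps1 (chromosome X, 13202571 to 13203780) from Rpl3 by 2 in 1210 bases. In Rps12-ps3 (chromosome 19), which GENCODE classes as protein-coding, all 494 bases are found in the Rps12 transcript.

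Levels fell into 2 ranges, with 11 members at a mean of 50 CPM or more and 70 members with means between 0.417 and 22.3 CPM. The 11 high members were Rps2-ps10 (992 ± 163 CPM), Rpl3-ps1 (745 ± 126), Rpl10-ps3 (592 ± 76.6), Rps23-ps1 (417 ± 70.03), Rps12-ps3 (361 ± 83.2), Rpl10a-ps1 (345 ± 66.0), Rps16-ps2 (294 ± 50.8), Rps13-ps2 (219 ± 36.3), Rpl28-ps1 (197 ± 29.9), Rpl35a-ps3 (94.6 ± 16.8) and Rpl36a-ps2 (75.6 ± 15.5), all as mean and SD over the 12 libraries. For comparison, the median of the 82 intact ribosomal protein genes was 290.1 CPM, and 81 of those 82 had a lower mean than Rps2-ps10. The 11 high members are 99.4% to 100% identical to their parents. Of their 50-base windows, between 0% and 4.31% were found in no other GENCODE transcript, whereas for the 66 lower members with a sequence the median was 30.5%.

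In 9 of these 11 pairs the pseudogene was listed above the intact gene. Rps2, which encodes uS5 of the small subunit, was at 3.04, 1.65 and 4.56 CPM in the 1st exposure libraries, 4.18 in the saliva immune library, 1.42, 1.14 and 1.21 in ticks 2x, 1.496, 0.847 and 1.22 in ticks 3x, and 1.68 and 0.519 in the naïve ones. Rps2-ps10 was at 1144, 1221 and 931 CPM in 1st exposure, 960.01 in saliva immune, 1227, 1144 and 999 in ticks 2x, 989.5, 900.2 and 820 in ticks 3x, and 843 and 720.2 in naïve skin. Every library thus listed the pseudogene at least 204-fold above the gene. Rpl3, which encodes a core protein of the large subunit, averaged 19.8 ± 8.55 CPM, and Rpl3-ps1 was listed between 25.9-fold and 63.3-fold above it. Rps13-ps2 was listed 14.7-fold to 65.4-fold above Rps13, and Rps23-ps1 6.26-fold to 24.4-fold above Rps23, which holds the decoding centre together with ribosomal RNA. Rpl28-ps1, in contrast, was listed below Rpl28 in every library, at 0.756-fold to 0.805-fold. Reads from the identical stretches of such pairs cannot be told apart by sequence, and these values do not show which copy was transcribed.

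**Figure D1:**
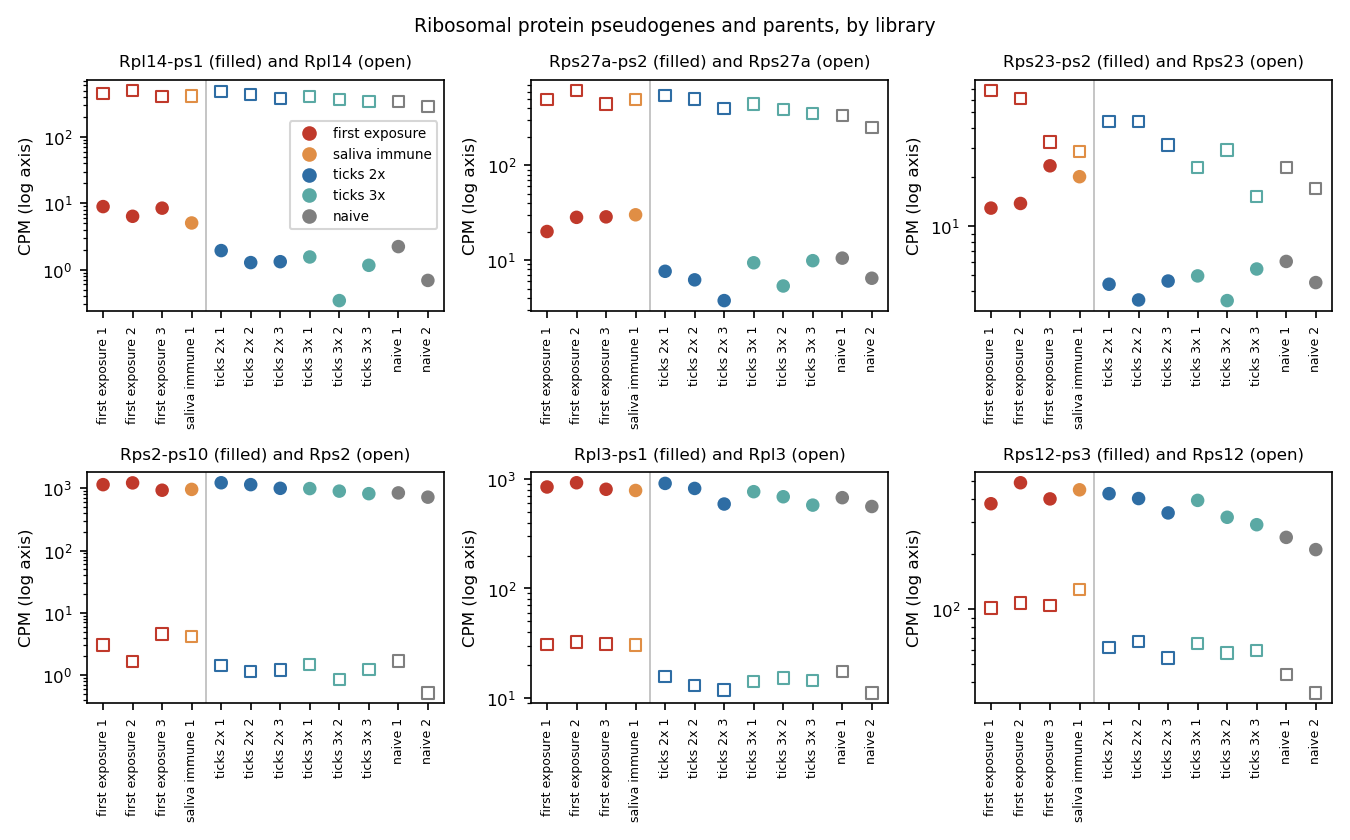
CPM of 6 pseudogenes (filled circles) and their parents (open squares) in each of the 12 libraries, on a log axis, coloured by immunization group, with a grey line between the title series EF19-4 (left) and EF19-6 (right). Rpl14-ps1, Rps27a-ps2 and Rps23-ps2 are higher in all 4 EF19-4 libraries than in all 8 EF19-6 ones, whereas Rps2-ps10, Rpl3-ps1 and Rps12-ps3 overlap and stand above their parents throughout.

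Few of the members' deposited values were whole numbers of reads. Among values of 0.01 to 3 CPM, a value was counted as whole if it lay within 0.02 reads of a whole multiple of the CPM of 1 read, which 4% of evenly spread values would meet. Of 119880 such values over all genes, 76.8% were whole, whereas of 1124 values of the 134 members 23.9% were, and of 615 values of the 81 described members 10.9%. Other genes with -ps in the symbol stood between, at 43.3%. The share for members was 21.3% in EF19-4 and 25.2% in EF19-6, against 74.5% and 78.1% for all genes. No source used here gives the program that assigned reads or its treatment of reads with several matches, and their part in the results below was not tested.

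**Figure D2:**
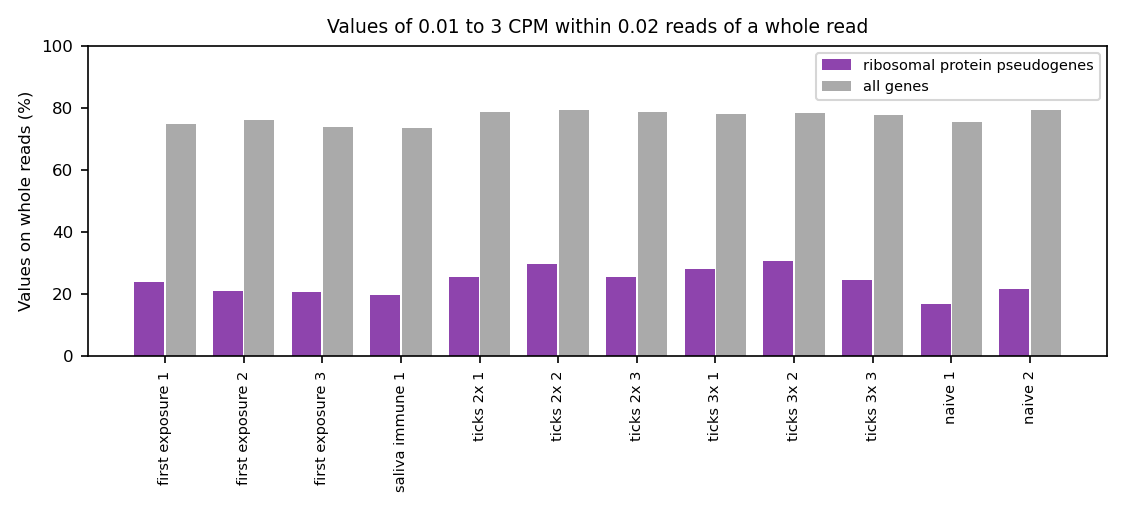
Percent of values between 0.01 and 3 CPM that lie within 0.02 reads of a whole number of reads, for the 134 ribosomal protein pseudogenes (purple) and for all genes (grey), by library. Members stay between 16.7% and 30.4%, all genes between 73.4% and 79.3%.

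The bitten libraries of EF19-4 (n = 4) were compared with the bitten libraries of EF19-6 (n = 6) with limma on log2(CPM + 1), adjusted by Benjamini-Hochberg over the 17057 genes tested. Of the 81 members, 36 were called higher in EF19-4 at an adjusted p under 0.05 and 0 were called lower, with 64 higher and 1 lower at an unadjusted p under 0.05. Over all genes tested, 1.43% were called higher and 0.317% lower, and 9.8% were higher and 6.03% lower at an unadjusted p under 0.05. The median log2 fold change of the 81 was 0.75, with 77 above 0, beside a median of 0.06 over all genes tested. In 51 members every EF19-4 library lay above every EF19-6 bitten library, which held for 3.89% of all genes tested. The 36 called members had log2 fold changes of 0.63 to 1.87 and means of at most 13.8 CPM, and none of the 11 high members was among them.

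The filter of 1 CPM favoured members that were high in EF19-4, since 31 of the 81 reached it only with those libraries. Of the 50 members with at least 1 CPM in 2 or more of the 8 EF19-6 libraries, a choice made without EF19-4, 22 were called higher and 47 lay above 0, with a median of 0.82. Of all genes chosen in that way 0.848% were called higher and 0.329% lower, against 0 of the 50 members called lower. With no filter, 43 of all 134 members were called higher and 123 lay above 0, while 1.46% of all genes were called higher and 0.263% lower. Of the 81 members, 12 reached 1 CPM in exactly 2 libraries, and 7 others reached it in exactly 1, such as Rps12-ps1, whose highest values were 1.07 and 0.97 CPM.

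The 3 marker pseudogenes had the largest differences among members whose libraries did not overlap. Rpl14-ps1, a copy of the gene of the large-subunit protein eL14, was at 8.95, 6.39 and 8.48 CPM in the 1st exposure libraries, 5.07 in saliva immune, 1.94, 1.28 and 1.32 in ticks 2x, 1.56, 0.342 and 1.17 in ticks 3x, and 2.23 and 0.69 in naïve skin. Its 4 EF19-4 libraries lay above all 8 others, and limma gave a log2 fold change of 1.87 (SE 0.23, adjusted p = 0.00845). The parent Rpl14 was at 444 ± 43.9 CPM in EF19-4 and 404 CPM in EF19-6 bitten skin, so the pseudogene stood at 1.64% of it in EF19-4 and 0.309% in EF19-6.

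Rps27a-ps2 is a copy of the gene that encodes ubiquitin fused to the small-subunit protein eS31. It was at 20.02, 28.3 and 28.6 CPM in 1st exposure, 30.1 in saliva immune, 7.61, 6.18 and 3.73 in ticks 2x, 9.36, 5.32 and 9.85 in ticks 3x, and 10.5 and 6.43 in naïve skin. No EF19-4 library overlapped an EF19-6 one, with a log2 fold change of 1.83 in bitten skin (SE 0.24, limma adjusted p = 0.0089). It stood at 5.26% of Rps27a in EF19-4 and 1.63% in EF19-6 bitten skin.

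Rps23-ps2 was at 12.9, 13.8 and 23.5 CPM in 1st exposure, 20.1 in saliva immune, 4.39, 3.52 and 4.60 in ticks 2x, 4.94, 3.49 and 5.45 in ticks 3x, and 6.07 and 4.50 in naïve skin. The series again did not overlap, and the log2 fold change was 1.75 (SE 0.19, limma adjusted p = 0.0063). Rps23-ps1, the other copy of Rps23 described above, averaged 471 ± 35.1 CPM in EF19-4 (SD, n = 4) and 419 ± 43.9 CPM in EF19-6 bitten skin (SD, n = 6), with a log2 fold change of 0.17 (adjusted p = 0.468). Their shared parent Rps23 averaged 47.6 ± 19.8 CPM in EF19-4 and 31.1 CPM in EF19-6 bitten skin and was not called.

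A further 7 members complete the 10 with the smallest adjusted p, and each was called higher in EF19-4 without overlap of the bitten libraries. Rps2-ps13 (chromosome X, 52898588 to 52899469) averaged 12.7 ± 2.03 CPM in EF19-4 and 3.58 ± 0.92 CPM in EF19-6 bitten skin. Rpl31-ps12 averaged 16.5 ± 5.46 and 4.09 ± 1.05 CPM in EF19-4 and EF19-6 bitten skin. In GENCODE it lies within Spag6l on the same strand, a symbol not analysed here, so that it counts below among the members outside the genes of the table. Rps12-ps10 averaged 5.20 ± 1.07 CPM in EF19-4 and 1.63 ± 0.333 CPM in EF19-6 bitten skin, Rpl39-ps 5.34 ± 1.76 and 1.52 ± 0.294 CPM, and Rpl3-ps2 3.84 ± 0.854 and 1.19 ± 0.389 CPM, in the same order of series. Rpl17-ps8 averaged 9.81 ± 1.80 CPM in EF19-4 and 4.57 ± 0.524 CPM in EF19-6 bitten skin. Rps2-ps8 averaged 1.59 ± 0.198 CPM in EF19-4 and 0.418 ± 0.129 CPM in EF19-6 bitten skin, but its naïve libraries, also EF19-6, were at 1.20 and 1.07 CPM.

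Rpl17-ps10 is an example of a large difference that did not pass. It averaged 14.4 ± 4.63 CPM in EF19-4 and 4.23 ± 2.81 CPM in EF19-6 bitten skin, without overlap, with a log2 fold change of 1.67 (limma adjusted p = 0.0599). The EF19-6 libraries spread from 1.42 CPM to 9.30 CPM.

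The 70 lower members differed between the title series also in their sum. It was 258, 318 and 399 CPM in 1st exposure and 361 CPM in saliva immune, against 147, 127 and 143 CPM in ticks 2x, 145, 125 and 154 CPM in ticks 3x, and 169 and 110.1 CPM in naïve skin. It averaged 334 ± 60.5 CPM in EF19-4 and 140.003 ± 11.6 CPM in EF19-6 bitten skin, a ratio of 2.39. Since 31 members reached 1 CPM only with EF19-4, the sum was also taken over the 39 lower members chosen in the EF19-6 libraries, where it averaged 292 ± 49.3 CPM in EF19-4 and 127 ± 10.6 CPM in EF19-6 bitten skin, a ratio of 2.31. The 53 members under the 1-CPM rule summed to 18.9 ± 3.99 CPM in EF19-4 and 7.12 ± 1.03 CPM in EF19-6 bitten skin. The sum of the 11 high members was 4756 ± 346 CPM in EF19-4 and 4387 ± 600.3 CPM in EF19-6 bitten skin, and that of the 44 parents 14153 ± 1154 and 11890 ± 1584 CPM, and for both the libraries of the series overlapped. The sum of the 203 other -ps genes was 1228 ± 196 CPM in EF19-4 and 1264 ± 216 CPM in EF19-6 bitten skin. Of the 83 of them that were tested, 9 were called higher in EF19-4 and 1 lower, with a median log2 fold change of 0.23. Over all genes tested, 1.43% were called higher and 0.317% lower.

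**Figure D3:**
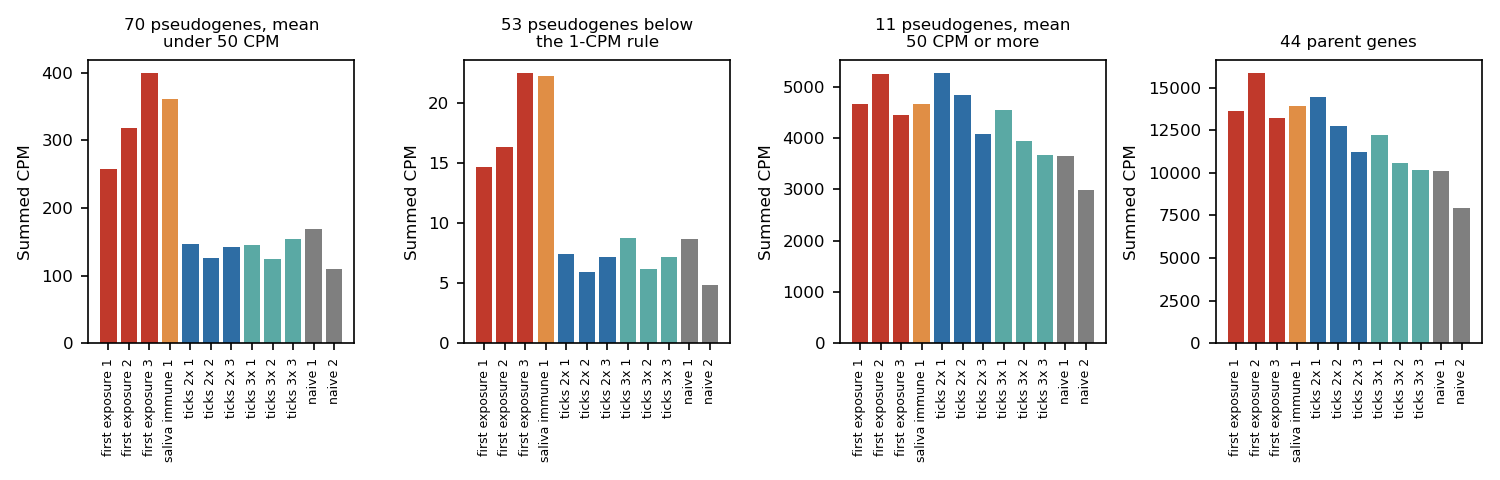
Summed CPM by library for the 70 described pseudogenes with a mean under 50 CPM, the 53 pseudogenes under the 1-CPM rule, the 11 with a mean of 50 CPM or more, and the 44 parents, with bars coloured by group (red 1st exposure, orange saliva immune, blue ticks 2x, green ticks 3x, grey naïve). In the first 2 panels all 4 EF19-4 bars stand above all 8 EF19-6 bars.

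The saliva immune library lay with 1st exposure. Of the 39 lower members chosen in the EF19-6 libraries, 36 were higher in it than in all 8 EF19-6 libraries, as were 11.6% of all genes chosen in that way. The same held for 30, 36 and 35 of the 39 in 1st exposure replicates 1, 2 and 3, against 24.1%, 25.5% and 10.1% of all such genes. The sum of the 39 was 228, 285 and 345 CPM in 1st exposure replicates 1, 2 and 3 and 310 CPM in saliva immune. The highest sums, in 1st exposure replicate 3 and saliva immune, come from the EF19-4 libraries with the low hair follicle means. When the fit took the mean of the hair follicle genes into account, 51 of the 81 members were called higher in EF19-4 and 0 lower, against 3.08% and 0.868% of all genes in that fit. The 81 include the 31 that reached 1 CPM only with EF19-4, and that fit was not summarized without them. In repeat minus 1st exposure, the same covariate took the members called lower from 15 to 9. Estimated depth was 28.6, 17.9 and 23.2 M reads in 1st exposure replicates 1, 2 and 3 and 25.6 M in saliva immune. It was 16.1 to 21.4 M reads in EF19-6 bitten skin, and 29.8 and 12.5 M in naïve skin. The part of depth in the difference between the title series was not tested.

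Other tissue lists moved with the title series as well, and their part in these differences was not tested. All 15 adipocyte genes were lower in EF19-4 bitten skin, with a median log2 fold change of -0.97 and 3 called, and their list mean was 6.05 to 7.01 in EF19-4, against 7.16 to 8.07 in EF19-6 bitten skin. All 21 cell cycle genes lay above 0 (median 0.77, list mean 4.44 to 5.37 in EF19-4 and 3.23 to 4.93 in EF19-6 bitten skin) and all 14 tested T cell genes below 0 (median -0.67, list mean 0.82 to 2.40 in EF19-4 and 1.602 to 3.06 in EF19-6 bitten skin), with 0 of either list called. All 11 tested basophil and mast cell genes lay below 0 (median -1.16, list mean 2.35 to 3.70 in EF19-4 and 3.22 to 4.73 in EF19-6 bitten skin). All 20 skeletal muscle genes lay above 0 (median 1.06, list mean 8.74 to 9.32 in EF19-4 and 6.25 to 10.2 in EF19-6 bitten skin), as did all 26 hair follicle genes (median 1.09). None of the genes of these 3 lists was called (0 in each). In whole skin, fewer cells of a type and less RNA per cell cannot be told apart.

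The intact genes of the translation machinery differed less. Of the 44 parents 5 were called higher in EF19-4, with a median log2 fold change of 0.31, and of the 82 intact cytosolic ribosomal protein genes the same 5, with a median of 0.25. These were Rpl3 (31.1 ± 0.946 CPM in EF19-4 and 14.1 ± 1.46 CPM in EF19-6 bitten skin), Rps12 (111 ± 11.6 and 60.9 ± 4.64 CPM), Rps16 (68.7 ± 2.33 and 38.8 ± 8.81 CPM), Rpl10a (50.7 ± 12.3 and 30.4 ± 3.11 CPM) and Rpl10 (147 ± 24.6 and 92.1 ± 8.84 CPM). Seen after the calls, each of the 5 is a parent of one of the 11 high pseudogenes and stood below it. Rpl3 and Rpl3-ps1 together summed to 871 CPM in EF19-4 and 739 CPM in EF19-6 bitten skin, and Rps12 and Rps12-ps3 to 539 and 421 CPM. Of 77 mitochondrial ribosomal protein genes and 42 translation factors 0 were called in either direction, with medians of 0.12 and 0.14.

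Processed pseudogenes of other genes differed too. Of 463 tested genes that GENCODE classes as processed pseudogenes and that are no members, 131 (28.3%) were called higher in EF19-4 and 3 lower, with a median log2 fold change of 0.55, while 36 of 81 members (44.4%) were called. Together these make up 167 of the 244 genes called higher. Because the lists differ in level and in the rule that chose them, nothing is drawn from the difference between these shares. The 1-CPM rule also let in genes that reached it only with EF19-4. Of the 244 genes, 139 had at least 1 CPM in 2 or more of the EF19-6 libraries. The counts of 131 and 167 were not repeated for genes chosen in that way, and nothing is drawn from them.

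Among members, the difference between the title series went with level and identity, as a description without a test. The 10 members with 100% identity over the aligned part had a median ratio of EF19-4 to EF19-6 bitten means of 1.11, and 1 of them was called. Those of 99% to under 100% identity (n = 32) had a median ratio of 2.69 with 14 called, those of 97% to under 99% (n = 23) 3.23 with 14 called, and those under 97% (n = 12) 3.27 with 4 called. The median mean levels of these 4 bands were 256, 3.43, 1.21 and 0.684 CPM. Most members of full identity were among the 11 high ones, and level and identity were not taken apart. The 1-CPM rule bears on the lower bands, where more members passed only with the EF19-4 libraries. Among the 50 members chosen in EF19-6, the median ratio was 1.11 at full identity (n = 10), 2.16 at 99% to under 100% (n = 24), 2.65 at 97% to under 99% (n = 13) and 2.66 in the 1 member under 97%. Exceptions stood within the group of 100% identity. Rpl38-ps2 was at 6.09 ± 2.10 CPM in EF19-4 and 1.63 ± 0.562 CPM in EF19-6 bitten skin (adjusted p = 0.0207), whereas Rpl10-ps1 was at 5.26 ± 1.58 and 9.25 ± 3.39 CPM (log2 fold change -0.68, adjusted p = 0.293). Rpl10-ps1 was the member farthest below 0. The other 3 below 0 were Rpl10-ps2, Rpl10-ps3 and Rps18-ps3, with ratios of 0.992, 0.938 and 0.995.

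**Figure D4:**
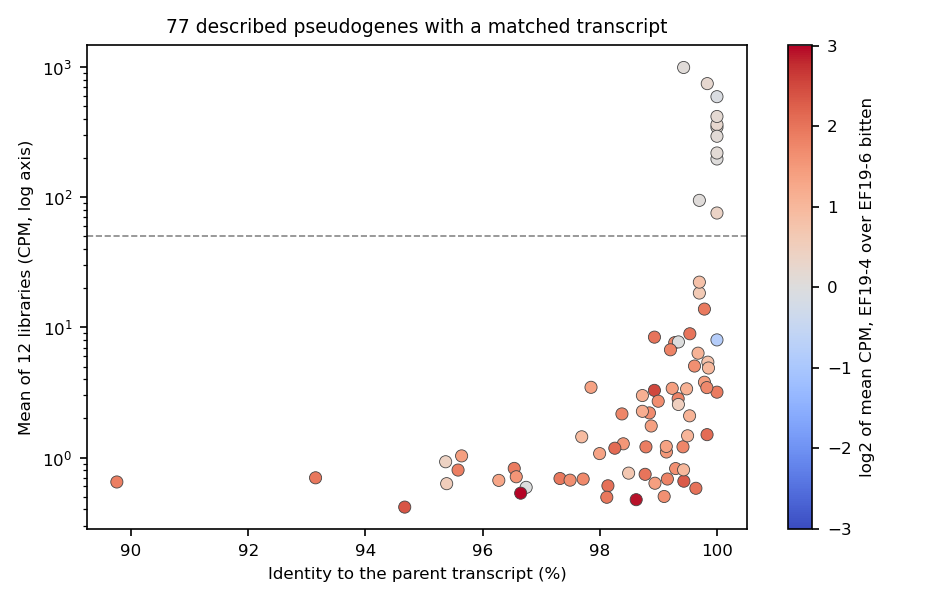
Mean CPM over 12 libraries (log axis) against identity to the parent transcript for the 77 described pseudogenes with a matched transcript, coloured by the log2 ratio of EF19-4 to EF19-6 bitten means. The 11 members above the dashed line at 50 CPM lie at 99.4% identity or more and are pale, with ratios of 0.938 to 1.28, and most of the others are red.

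Members overlapping other genes were compared with the rest, as a description. Of the 66 lower members with a known position, 19 overlap the span of another gene of the table on either strand. These had a median ratio of 2.28 and 9 called, and the 47 others a median ratio of 3.18 and 24 called. The genes overlapping the 19 had a median ratio of 1.13. Of all described members, 8 overlap a protein-coding gene on the same strand, and same-strand genes were not taken apart. The 66 include members that reached 1 CPM only with EF19-4, and the comparison was not repeated without them. Rpl14-ps1 overlaps Trpm4, which averaged 25.5 ± 0.923 CPM in EF19-4 and 22.6 ± 3.44 CPM in EF19-6 bitten skin.

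The ratio of pseudogene to parent was also set by library. The median over the 81 members of log2 of (pseudogene CPM + 1) over (parent CPM + 1) was -5.85, -6.03 and -5.61 in 1st exposure, -5.92 in saliva immune, -6.62, -6.63 and -6.51 in ticks 2x, -6.56, -6.52 and -6.16 in ticks 3x, and -6.00 and -6.18 in naïve skin. The EF19-4 libraries lay above all 6 bitten EF19-6 ones, but naïve replicate 1 lay within the EF19-4 range. Since 31 of the 81 members reached 1 CPM only with EF19-4, the rule itself favours higher medians there. The medians were not repeated for the members chosen in EF19-6, and nothing is drawn from their order.

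Comparison of 1st exposure with naïve skin asks what a first bite changed, although it also crosses the title series. Of 72 members tested, 0 were called in either direction by limma over 17060 genes (0.00586% of all genes were called higher and as many lower), and 49 were higher and 0 lower at an unadjusted p under 0.05, beside 10.1% and 6.31% of all genes. The count of 0 became 30 called higher with array weights and 5 without 1st exposure replicate 3. The members had a median log2 fold change of 0.67, with 70 above 0, and in 59 every 1st exposure library lay above both naïve ones, as in 21% of all genes tested. Of the 50 members chosen in EF19-6, a choice that holds the naïve libraries but not those of 1st exposure, 0 were called and 49 lay above 0, with a median of 0.73 (0.00607% of genes chosen in that way were called higher and as many lower). The 44 parents had a median of 0.73 with all 44 above 0. Rps12-ps10 came nearest, at 4.97 ± 1.18 CPM after 1st exposure (SD, n = 3) and 0.972 ± 0.601 CPM in naïve skin (SD, n = 2), with a log2 fold change of 1.61 (adjusted p = 0.0618). Among the high members, Rps2-ps10 averaged 1099 ± 150.1 CPM after 1st exposure and 782 ± 87.2 CPM in naïve skin (adjusted p = 0.276). All 26 hair follicle genes (median log2 fold change 2.58) and all 21 cell cycle genes (0.87) lay above 0 and all 15 adipocyte genes below 0 (-1.37), with 0 called in each list, and their part in these values was not tested.

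Within EF19-6, where the title series is the same, no difference of the members passed. For ticks 2x against naïve skin 0 of 72 members were called, with 11 higher and 2 lower at an unadjusted p under 0.05 (of all genes 0% called higher and 0.0352% lower, and 5.71% higher and 5.23% lower unadjusted). The median log2 fold change of the members was 0.01, while that of the parents was 0.52 with 43 of 44 above 0. For ticks 3x against naïve skin 0 were called, with 3 higher and 2 lower unadjusted (of all genes 0.00586% called higher and 0% lower, and 4.83% higher and 2.12% lower unadjusted), and the medians were -0.01 for members and 0.27 for parents. For ticks 3x against ticks 2x 0 were called, with 2 higher and 2 lower unadjusted (of all genes 0% called in either direction, and 3.56% higher and 1.58% lower unadjusted), and the medians were -0.02 for members and -0.22 for parents. Rpl14-ps1 averaged 1.52 ± 0.371 CPM in ticks 2x, 1.02 ± 0.62 CPM in ticks 3x and 1.46 ± 1.09 CPM in naïve skin. Rps27a-ps2 averaged 5.84 ± 1.96 CPM in ticks 2x, 8.18 ± 2.49 CPM in ticks 3x and 8.45 ± 2.87 CPM in naïve skin.

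In 12 of the 72 members every ticks 2x library lay above both naïve ones and in 12 every one lay below, as in 14.7% and 12.8% of all genes tested, so that the members' shares were near the background. Values of 2 high members are given as examples. Rps12-ps3 averaged 388 ± 47.4 CPM in ticks 2x and 229 ± 24.8 CPM in naïve skin without overlap (log2 fold change 0.75, adjusted p = 0.262), and Rps2-ps10 averaged 1123 ± 116 CPM in ticks 2x and 782 ± 87.2 CPM in naïve skin (log2 fold change 0.52, adjusted p = 0.401). The largest gap between ticks 3x and ticks 2x was in Rpl17-ps10, at 6.16 ± 2.77 CPM in ticks 3x and 2.31 ± 0.968 CPM in ticks 2x (log2 fold change 1.09, adjusted p = 0.894).

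**Figure D5:**
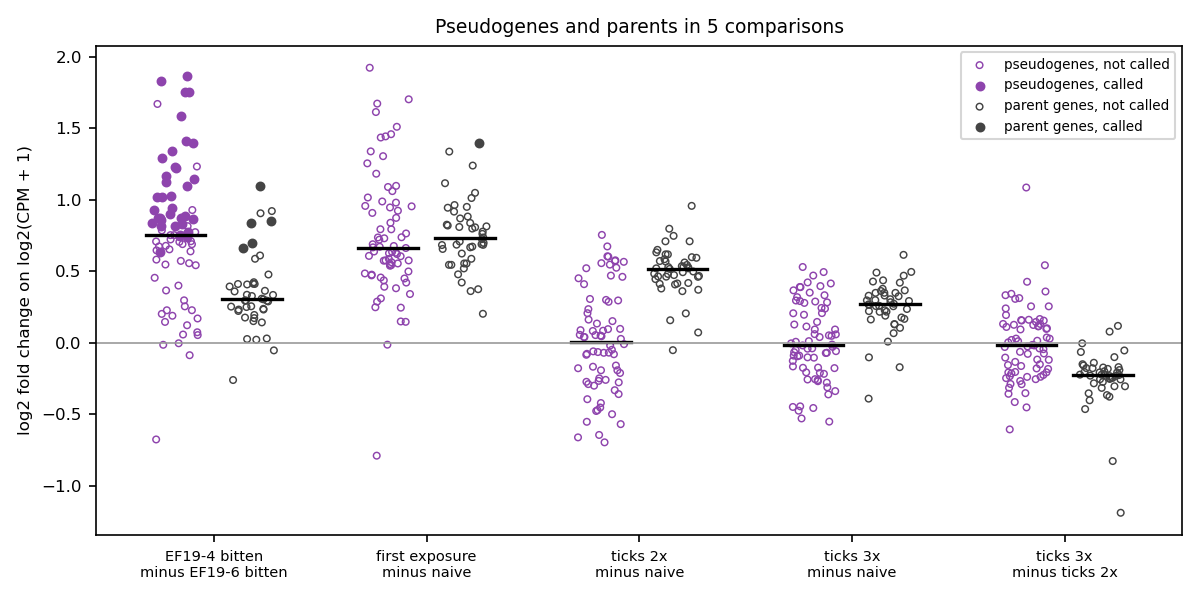
Log2 fold changes on log2(CPM + 1) of ribosomal protein pseudogenes (purple) and their parents (grey) in 5 comparisons, 1 point per gene, filled where limma's adjusted p is under 0.05, with black bars at the medians. Pseudogenes have a median of 0.75 and parents of 0.31 between the title series, 0.67 and 0.73 for 1st exposure minus naïve, and 0.01 and 0.52 for ticks 2x minus naïve.

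Repeat exposure (ticks 2x and 3x pooled, n = 6) against 1st exposure (n = 3) uses libraries of the title series comparison without saliva immune, and its values are no independent evidence. Of 72 members 15 were called lower after repeat exposure and 0 higher, while 0.574% of all genes were called lower and 0.246% higher. All 15 were among the 36 called between the title series. In 45 members no library overlapped, as in 5.18% of all genes, and the median log2 fold change was -0.72. Of the 50 members chosen in EF19-6, 12 were called lower and 0 higher, with a median of -0.78, against 0.412% and 0.255% of all genes chosen in that way. Rpl14-ps1 averaged 1.27 ± 0.531 CPM after repeat exposure and 7.94 ± 1.36 CPM after 1st exposure (log2 fold change -2.01, SE 0.27, adjusted p = 0.0249). Rps23-ps2 averaged 4.40 ± 0.781 CPM after repeat exposure and 16.7 ± 5.87 CPM after 1st exposure (log2 fold change -1.68, adjusted p = 0.0249). The count of called members depended on single libraries: it was 4 without 1st exposure replicate 1, 22 without replicate 3, 7 without ticks 2x replicate 1, 2 without ticks 2x replicate 2, and 0 without 1st exposure replicate 2, ticks 2x replicate 3 or ticks 3x replicate 1 or 2.

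The 36 calls between the title series also depended on which libraries were included. Without 1st exposure replicate 3, or without saliva immune, 10 were called, and 21 without 1st exposure replicate 2. In EF19-6, 20 were called without ticks 2x replicate 2, 23 without ticks 2x replicate 3, 18 without ticks 3x replicate 1 and 13 without ticks 3x replicate 2.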

How the data were processed

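Skin RNA was purified with Qiagen RNeasy kits and sequenced from standard Illumina libraries, per the labels. The submitters' processing notes name STAR, Partek 8.0.19 and the build GRCm38.p6. No source used here gives the annotation, the read length or how reads with several matches were handled. The authors deposited CPM, a gene's reads scaled to its library's total, per gene symbol, with 0.0001 added in every cell, and 4 rows with duplicated symbols were left out.

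Groups and title series were taken from the labels. Log2(CPM + 1) values of genes with at least 1 CPM in 2 or more libraries of a fit were tested with limma 3.58.1 in R 4.3.3 (eBayes with trend), two-sided, with Benjamini-Hochberg adjustment over all genes tested. The fits used 11 libraries without saliva immune, or the 10 bitten libraries for the title series. The CPM of 1 read was estimated from the lowest common step of each library; floors cover counting error only, and since few members had whole reads no count test was run. Each member's GENCODE M21 transcript was aligned to the parent's with Biopython 1.88, and 50-base windows were searched in all GENCODE transcripts. Of the 134 members 129 matched by symbol.

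Named members are the 3 markers, the 10 highest by mean CPM, the 10 smallest adjusted p, and the 5 largest differences without overlap; other examples were chosen after their values were seen. The members and lists were chosen with earlier results of these data known. The test was checked on simulated data.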

Additional observations from a re-analysis of the deposited data

Results flagged for a closer look

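The 53 pseudogenes under the 1-CPM rule, which enter no comparison of described members, summed to a mean of 18.9 CPM over the 4 EF19-4 libraries, against 8.69 and 4.86 CPM in the naïve libraries of EF19-6. Every EF19-4 library, at 14.7, 16.4, 22.4 and 22.2 CPM, lay above both. No named member had a single library far from the others of its title series among the 42 groups examined with Dixon's gap test.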

How the results depend on the processing

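No paired analysis was possible because nothing in the labels ties equal numbers to an animal or batch: the numbers in the titles recur between some groups but run through each title series. Between the title series, the 36 members called higher became 7 with a filter at 5 CPM (33 members tested), 10 with quantile normalization and 22 among the 50 members chosen in the EF19-6 libraries, an alternative added after the data were seen. Leaving out a library gave 10 to 31. For repeat minus 1st exposure, the 15 called lower became 9 with a pseudocount of 0.5, 5 with 0.1, 24 without a filter, 1 with a filter at 5 CPM, 8 with median-of-ratios scaling, 3 with quantile normalization, 48 with array weights and 9 with a hair follicle covariate, and 0 to 22 when a library was left out; 1 was called higher with array weights. For 1st exposure minus naïve, 0 became 30 with array weights, which did not fully converge, and 0 to 5 when a library was left out (5 without 1st exposure replicate 3). For ticks 3x minus naïve, 1 was called lower with array weights. For single named members under the alternatives, 427 values between the title series kept direction and call, 4 gained and 3 lost it, and for 1st exposure minus naïve 441 kept both and 17 gained a call. No call in the 5 CPM or quantile settings was in the other direction. The median difference in pseudogene to parent ratio between the title series was 0.43 (log2), 1.03 with a pseudocount of 0.1, and 0.30 to 0.53 when a library was left out. It was taken over the described members, a set that the 1-CPM rule tilts toward EF19-4. The share of whole values at a tolerance of 0.05 reads was 16.7% for described members and 79.2% for all genes; leaving out a library gave 10.3% to 11.4% and 76.6% to 77.1%. Among members that were not called, the sign turned for Rpl10-ps3 with all 12 libraries (0.018), for Rpl28-ps1 with median-of-ratios scaling (-0.015), and for Rpl35a-ps3 with that scaling (-0.011), and when libraries were left out (-0.00597 without saliva immune to 0.14, and below 0 also without ticks 3x replicate 2). Causes of these changes were not tested. Levels near the floor of 0.101 to 0.24 CPM limit the lowest members.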
